A study of Mus musculus with 2 samples.

Results

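The erythropoietin receptor pathway was followed through 10 genes chosen by name: the receptor Epor, the kinase Jak2, the transcription factors Stat5a and Stat5b, the feedback inhibitors Cish, Socs1 and Socs3, the kinases Pim1 and Lyn, and the phosphatase Ptpn6. All 10 were found among the 55536 mouse gene identifiers of the main table, of which 22028 are protein-coding. Polyadenylated RNA had been sequenced with paired ends from G1E-ER4 cells treated with 17beta-estradiol at 10 nM, and the 2 libraries were collected after 24 h of treatment. G1E-ER4 comes from a line of Gata1-null mouse cells and carries a GATA1 fusion protein that estradiol activates, which sets off erythroid maturation. The study's labels hold 1 group and no untreated or parental sample, so every value is a level in treated cells and not a change, and no test between conditions was possible. Both libraries point to 1 biosample record, and the labels do not say whether they are separate cultures, so their spread may be technical. G1E lines are usually kept in medium with erythropoietin and Kit ligand, but the labels used here do not give the medium.

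Erythropoietin is the hormone that keeps late erythroid progenitors alive. Its receptor has no enzyme activity of its own: the cytoplasmic kinase JAK2 is bound to it, is activated when the hormone arrives, and phosphorylates receptor tyrosines to which STAT5A and STAT5B dock before they enter the nucleus. STAT5 then raises survival and growth genes such as Pim1 and Bcl2l1, and also Cish and the Socs genes, whose products shut the receptor complex down again, while the phosphatase SHP-1, encoded by Ptpn6, is recruited to the receptor and switches JAK2 off.

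The libraries differed in depth by 5.06 times, 71485617 expected counts in replicate 1 and 14121747 in replicate 2, and the shallower library has the larger counting error. Gata1 stood at 2890 and 2661 TPM in replicates 1 and 2, the order kept for paired values below (TPM, transcript abundance corrected for gene length and scaled to a fixed total per library). Since the line carries an introduced GATA1 fusion, this value does not check the cell type. Of 10 erythroid markers, 9 reached 1 TPM in both libraries, against 0 of 7 mast cell, 10 granulocyte and monocyte, 10 lymphoid and 8 stromal and endothelial markers, and 3 of 8 megakaryocyte markers. The libraries were not alike in maturation markers: Alas2, the erythroid enzyme of heme synthesis, was at 304 and 69.0 TPM, though at 78.6 and 67.5 TPM on full-length coding transcripts (defined with Jak2 below), and Epb42, of the red cell skeleton, was at 1.25 and 0.26 TPM. Hbb-bs, an adult beta globin, was at 97719 and 34786 TPM, whereas Klf1, an erythroid transcription factor, was at 634 and 2134 TPM. The part of this difference in the values below was not tested.

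All 10 genes reached 1 TPM in both libraries, which 33.1% of the protein-coding genes did. Their levels ran from Pim1 at a mean of 1033 TPM to Stat5a at 2.95 TPM. By mean level the order was Pim1, Cish, Epor, Stat5b, Lyn, Socs1, Jak2, Socs3, Ptpn6 and Stat5a. The ranges of the 2 libraries overlapped between the neighbours Stat5b and Lyn, Lyn and Socs1, Jak2 and Socs3, and Ptpn6 and Stat5a. Stat5b was still above Lyn within each library, at 57.3 against 39.9 TPM and 33.2 against 26.6 TPM. The remaining overlapping neighbours changed order between the libraries and could not be ordered. The ranges did not overlap at the other 5 steps of the order, but 2 of these steps were weak. The step from Socs3 to Ptpn6 was reversed in the posterior means, which put Ptpn6 at 11.4 and 32.0 TPM and Socs3 at 7.33 and 9.19 TPM. The step from Socs1 to Jak2 rested on replicate 2. In replicate 1 Socs1 was at 9.03 TPM and Jak2 at 8.97 TPM, with posterior means of 8.92 and 8.87 TPM. This is bulk RNA, in which fewer cells with a transcript and less of it per cell cannot be told apart.

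**Figure D1:**
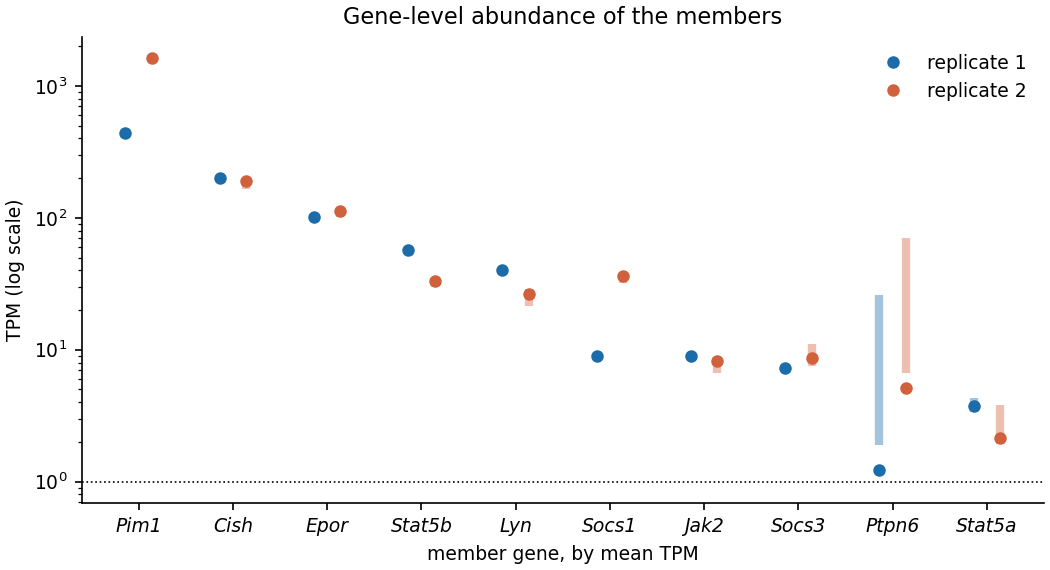
Gene-level TPM of the 10 genes on a log axis, with 1 point per library and a pale bar for the authors' interval of the posterior estimate; the dotted line marks 1 TPM. Pim1, Cish and Epor lie at or above 102 TPM in both libraries, and the Ptpn6 points lie below their own intervals. The Pim1 points lie slightly above theirs, as do the replicate 2 points of Epor, Stat5b and Socs1.

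Epor (chr9:21958897-21963506 on mm10, minus strand) encodes the receptor that binds the hormone, and its TPM in the main table was high and alike in both libraries. It was at 102 TPM in replicate 1, from 11098 expected counts, and at 114 TPM in replicate 2, from 1654, or 108 ± 8.14 TPM (SD, n = 2) on average. The authors' interval was 98.7 to 103 TPM and 101 to 113 TPM. The libraries differed by 1.11-fold in TPM, and Epor ranked 1106 and 1031 among the protein-coding genes. Scaled to library size alone (CPM, the count divided by the library total), replicate 2 was lower, at 0.754 of replicate 1 (exact 95% binomial interval 0.716 to 0.795, which covers counting error only).

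The libraries differed in which Epor transcript the reads were assigned to. Epor-201, the 8-exon transcript of the whole receptor, held 90.2% of the gene's TPM in replicate 1 and 59.0% in replicate 2. The rest went to Epor-202, a 659-base model of 3 exons that begins inside the intron before the second exon and has 228 bases outside the exons of Epor-201. In the deposited table made from the reads without alignment to the genome, the share of Epor-202 was 13.9% and 34.4%. The stretch below, on mm10 at chr9:21962317-21962396 on the minus strand, shows what sets the short model apart: the capitals are its intronic bases, which end in the AG of a splice acceptor, and the lower-case bases are the coding exon.

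Epor-202: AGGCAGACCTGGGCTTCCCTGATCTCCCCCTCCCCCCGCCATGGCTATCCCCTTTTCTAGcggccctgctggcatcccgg

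On Epor-201 alone the level was 92.0 and 67.0 TPM, and replicate 2 was then the lower one.

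The 250 bases before the RefSeq start of Epor (GRCm38.p6, chr9:21963577-21963826, minus strand) are shown because the line matures through GATA1. In capitals are the 2 matches to CACCC, a sequence bound by KLF and SP factors, and the match to AGATAA, a sequence bound by GATA factors, which reads TTATCT on this strand.

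Epor upstream: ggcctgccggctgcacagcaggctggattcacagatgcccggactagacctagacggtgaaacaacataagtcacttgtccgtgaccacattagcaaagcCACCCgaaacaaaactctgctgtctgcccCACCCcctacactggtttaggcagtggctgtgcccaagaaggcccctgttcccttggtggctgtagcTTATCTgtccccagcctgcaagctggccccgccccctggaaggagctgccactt

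The AGATAA match began at -54 and the CACCC matches at -150 and -121, counted from the start base as 0. RefSeq windows of 300 bases, searched on both strands, were given for 9 of the 10 genes and not for Lyn. These 9 genes have 12 windows. AGATAA was in 1 of the 12, that of Epor, and in 11.2% of all 32851 windows, and CACCC was in 8 of the 12 and in 57.5% of all. None of the matches printed here overlaps another. A match of letters is no evidence of binding.

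Jak2 (chr19:29251828-29313080, plus strand), the kinase carried by the receptor, was low beside it. It was at 8.97 TPM in replicate 1, from 3170 expected counts, and 8.18 TPM in replicate 2, from 363, or 8.58 ± 0.559 TPM (SD, n = 2) on average. Epor exceeded Jak2 by 11.4-fold in replicate 1 and 13.9-fold in replicate 2 in TPM. On full-length coding transcripts, meaning those with at least 90% of the gene's longest coding sequence, the ratio was 10.3 and 15.3, so the receptor's transcript stood above that of its kinase on either count. In replicate 1 all of the Jak2 level lay on Jak2-202, the 25-exon transcript for the whole kinase. In replicate 2 that transcript held 53.5%, and Jak2-203, a model of 14 exons and 2219 bases that stops short of the kinase's last exons, held 46.5%, on 98.1 expected counts. The full-length level was therefore 8.97 and 4.38 TPM, 2.05-fold apart.

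The other JAK kinases were all detected, 3 of 3. Jak1, which serves interferon and many interleukin receptors, was at 258 and 287 TPM, 28.7-fold and 35-fold above Jak2. Most of that lay on short models: full-length Jak1 transcripts were at 20.2 and 5.71 TPM, 2.26-fold and 1.30-fold above full-length Jak2. Tyk2 was at 17.1 and 8.18 TPM and Jak3, the partner of the common gamma chain, at 2.27 and 4.96 TPM. Jak2 was thus not the most abundant of its family in either library by either measure.

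Stat5b carried most of the STAT5 transcript. Stat5b (chr11:100780731-100850724, minus strand) was at 57.3 TPM in replicate 1, from 19981 expected counts, and 33.2 TPM in replicate 2, from 2024, or 45.2 ± 17.0 TPM (SD, n = 2) on average. Stat5a (chr11:100859351-100885169, plus strand) was at 3.73 TPM in replicate 1 and at 2.16 in replicate 2, or 2.95 ± 1.11 TPM (SD, n = 2) on average, on 740 and 93.0 expected counts. Stat5b exceeded Stat5a by 15.4-fold in both libraries. The same ratio was 10.3 and 11.8 in the table made from reads and 21.2 and 18.0 on full-length coding transcripts, so Stat5b was the higher gene in each estimate.

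The genes lie 8626 bases apart on opposite strands and are close copies, so some reads fit both. Of the 31-base words of Stat5a-203, 24.5% occur in another gene, 836 of them in Stat5b, and 16.6% of those of Stat5b-201 occur in Stat5a. The longest run that both share is 324 bases, at positions 674 to 997 of Stat5a-203 and 907 to 1230 of Stat5b-201, inside both coding sequences. Its first 150 bases are printed to show what a fragment that cannot be assigned by its bases looks like.

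Shared by Stat5a and Stat5b: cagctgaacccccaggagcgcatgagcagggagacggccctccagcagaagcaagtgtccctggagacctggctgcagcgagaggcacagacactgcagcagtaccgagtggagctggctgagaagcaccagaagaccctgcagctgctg

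The transcripts of Stat5a were assigned differently in each library. Stat5a-203 held 64.0% of the gene in replicate 1 and none in replicate 2, where Stat5a-201 held 85.6%. They have different starts and coding sequences of 2391 and 2379 bases. Stat5b was simple, with Stat5b-201 at 97.8% and 100% of the gene. Stat5a also overlaps Stat3 by 72 bases on the opposite strand, and Stat3 had 6389 and 546 expected counts.

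Of the 5 other STAT genes, 4 were detected. Stat3 was at 27.1 and 13.0 TPM, Stat6, the interleukin-4 STAT, at 25.3 and 16.2 TPM, and Stat2, the interferon STAT, at 11.1 and 23.5 TPM. On full-length transcripts the direction of Stat2 was reversed, at 6.04 and 1.15 TPM. Stat4 had no counts in either library. Stat5b exceeded Stat3 by 2.11-fold and 2.55-fold in the main table, but lay below it in the table made from reads, at 0.906 and 0.285 of the Stat3 level.

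Cish, the first of the feedback inhibitors, encodes an SH2 protein that occupies STAT5 docking sites on the receptor. Cish (chr9:107296026-107302784, plus strand) was at 201 TPM in replicate 1, from 16374 expected counts, and 189 TPM in replicate 2, from 1899, or 195 ± 8.19 TPM (SD, n = 2) on average. It was the second most abundant of the 10 genes and the libraries differed by 1.06-fold. Its level exceeded that of Socs2, the closest of the other SOCS genes by mean, by 5.92-fold and 8.39-fold, but full-length Socs2 was 1.30-fold and 8.20-fold above full-length Cish.

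Little of that level was assigned to the transcript for the whole protein. Cish-201, with a coding sequence of 771 bases, held 5.96% of the gene's TPM in replicate 1 and 0.671% in replicate 2, 12.0 and 1.27 TPM. These levels rest on 2341 and 42.7 expected counts, and the authors' interval in replicate 2 was 0.622 to 1.94 TPM. Cish-203, a model of 411 bases, held 37.5% and 72.6%, Cish-204, which skips the 221-base second exon, held 27.8% and 18.8%, and Cish-205, a processed transcript of 371 bases, held 26.8% and 6.06%. The table made from reads gave Cish-201 a larger part, 35.6% and 11.9%, again lower in replicate 2. These are shares of TPM, which is corrected for length. In expected counts of the main quantification Cish-204 held the largest part, 10463 and 1150 of 16374 and 1899, and Cish-203 held 1415 and 477. Cish-204 also runs 797 bases past the end of Cish-201, where no other Cish model lies. How many of its counts fell there, and how many on the exon skip, was not tested. Cish-203 differs from Cish-201 at 1 splice junction, which leaves out 64 bases of the second exon and 53 of the third. The junctions are shown with the bases after the splice in capitals, on mm10 chr9:107300061-107300440 for Cish-203 and chr9:107300125-107300387 for Cish-201, plus strand.

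Cish-203 junction: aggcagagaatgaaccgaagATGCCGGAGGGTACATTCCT
Cish-201 junction: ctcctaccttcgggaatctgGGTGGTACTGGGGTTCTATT

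TTCNNNGAA, the palindrome bound by STAT5, was in 2 of the 12 windows, those of Cish and Socs3, and in 8.30% of all windows. Cish had it at 0 and at 11, side by side at its RefSeq start (GRCm38.p6, chr9:107296654-107296683, plus strand). GENCODE starts Cish-201 upstream of these matches, at 107296026. Socs3 had the palindrome at -154 from its RefSeq start (chr11:117969501-117969530, minus strand). The matches are in capitals.

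Cish start: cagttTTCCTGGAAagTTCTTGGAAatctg
Socs3 upstream: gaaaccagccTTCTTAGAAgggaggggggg

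Socs1, whose product binds JAK2 and blocks its kinase domain, differed most between the libraries among the SOCS genes at the gene level. Socs1 (chr16:10782240-10785536, minus strand) was at 9.03 TPM in replicate 1, from 1725 expected counts, and 36.5 TPM in replicate 2, from 1195. Replicate 2 was 4.04-fold higher in TPM and 3.51-fold higher in CPM (exact 95% binomial interval 3.25 to 3.78), beyond counting error. The level itself depended on the annotation: with the older GENCODE release M4 it was 23.1 and 98.0 TPM on nearly the same counts, 1703 and 1194, with an effective length of 1068 and 1090 bases in place of 2637 and 2655. The difference between the libraries was present under both releases.

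Socs3, which inhibits JAK kinases from a docking site on the receptor, was low and alike in both libraries. Socs3 (chr11:117966079-117970047, minus strand) was at 7.23 TPM in replicate 1, from 1245 expected counts, and 8.73 TPM in replicate 2, from 261, or 7.98 ± 1.06 TPM (SD, n = 2) on average, and nearly all of it lay on Socs3-201, 98.8% and 100%. In CPM the ratio of replicate 2 to replicate 1 was 1.06, with an exact 95% binomial interval of 0.925 to 1.21 that includes no difference. Cish exceeded Socs3 by 27.8-fold and 21.7-fold and Socs1 by 22.2-fold and 5.19-fold. On full-length transcripts that order was not kept: Socs1 was at 0.754 of Cish in replicate 1 and 28.7-fold above it in replicate 2. The size of that gap depended on the quantification. In the table made from reads full-length Socs1 was at 7.25 and 7.92 TPM and full-length Cish at 42.6 and 5.34 TPM.

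All 5 other SOCS genes were detected. Socs2, which is itself a STAT5 target in many tissues, was at 33.9 and 22.5 TPM, Socs7 at 10.7 and 19.2 TPM and Socs5 at 4.70 and 10.7 TPM, and Socs4 was the lowest at 2.09 and 1.18 TPM. Of Socs5, 4.47% and 4.22% lay on full-length coding transcripts.

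**Figure D2:**
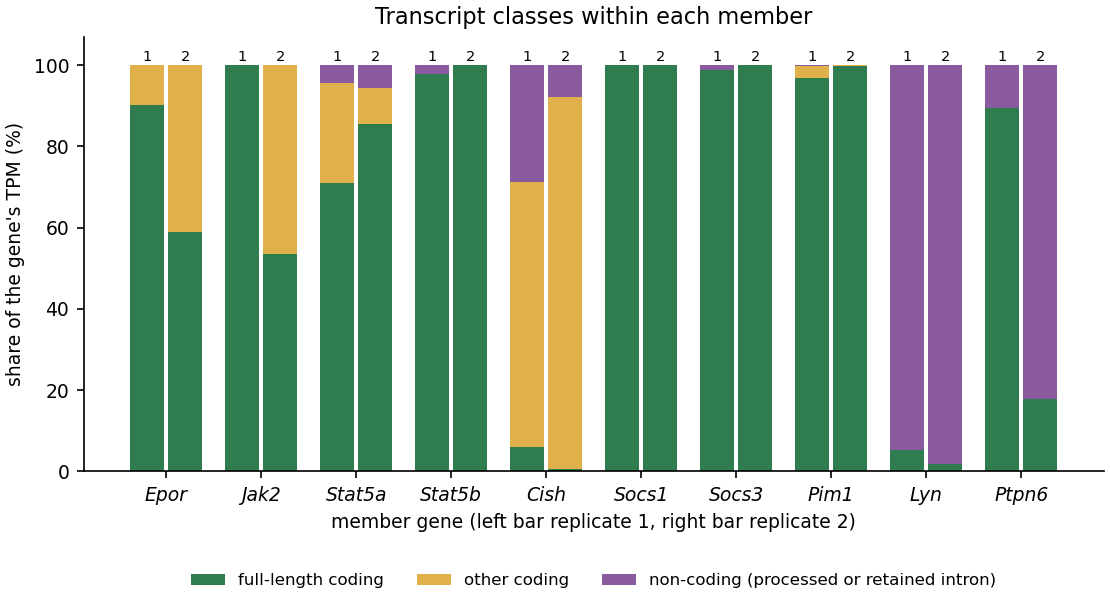
Share of each gene's TPM, in percent, on full-length coding transcripts, other coding models and non-coding models, with the left bar for replicate 1 and the right bar for replicate 2. Full-length transcripts hold 96.7% or more of Stat5b, Socs1, Socs3 and Pim1 in both libraries, and 5.96% or less of Cish and Lyn.

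Pim1, a serine and threonine kinase that supports survival downstream of STAT5, was the most abundant of the 10 genes. Pim1 (chr17:29490753-29496112, plus strand) was at 437 TPM in replicate 1, from 78398 expected counts, and 1629 TPM in replicate 2, from 51585. The authors' interval, 426 to 436 TPM and 1514 to 1541 TPM, lay below the point estimate in both libraries. Replicate 2 was 3.73-fold higher in TPM and 3.33-fold higher in CPM (exact 95% binomial interval 3.29 to 3.37). Pim1-201 held 96.7% and 99.8% of the gene, and on it alone replicate 2 was 3.85-fold higher. Pim1 alone made up 50.4% of the summed TPM of the 10 genes in replicate 1 and 79.4% in replicate 2. Its level exceeded that of Pim2, the related kinase, by 41.9-fold and 82.3-fold.

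The table made from reads gave another picture of the size of this difference. There Pim1 was at 406 and 369 TPM, and Socs1 at 7.25 and 7.92 TPM. That table is shifted as a whole: the median gene was lower in replicate 2 by a log2 of -1.69, against -0.39 in the main table. Relative to that median, Socs1 was higher in replicate 2 by a log2 of 1.82 and Pim1 by 1.56. Both genes thus stood above the median shift in either table, while the direction of the plain Pim1 ratio was reversed. In the table made from reads 7 of the 10 genes, all but Socs1, Pim1 and Ptpn6, were over 2-fold lower in replicate 2, against 72.6% of 10268 genes, and none was over 2-fold higher, against 4.33%. Over 2-fold apart in either direction there were 76.9% of genes.

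The target genes listed for erythropoietin or STAT5 were detected in 10 of 15 cases. Mcl1, which protects against cell death, was at 278 and 632 TPM, Bcl2l1, another survival gene, at 274 and 538 TPM, and Erfe, the erythroid hormone that lowers hepcidin, was at 109 and 183 TPM. Other targets were lower in replicate 2, such as Tfrc, the transferrin receptor, at 30.3 and 8.38 TPM, and of the 10 targets with at least 50 expected counts on average 2 were over 2-fold higher and 2 over 2-fold lower there. Bcl2l1 and Erfe lay on full-length transcripts for 96.9% or more, whereas full-length Mcl1 was at 23.8 and 98.5 TPM. Bcl6, which STAT5 represses in lymphocytes, was listed at 0 and 0.02 TPM.

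Lyn, a SRC family kinase found with the erythropoietin receptor in erythroid cells, was detected at the gene level, mostly through a transcript that does not encode it. Lyn (chr4:3678115-3813122, plus strand) was at 39.9 TPM in replicate 1, from 1982 expected counts, and 26.6 TPM in replicate 2, from 200, or 33.3 ± 9.40 TPM (SD, n = 2) on average. Of this, 94.6% and 98.2% were assigned to Lyn-204, a processed transcript of 2 exons and 687 bases. The table made from reads gave it 95.3% and 97.1%, so both quantifications placed the gene's level there. The models for the whole kinase, Lyn-201 and Lyn-202, were together at 2.16 TPM on 517 expected counts in replicate 1 and 0.49 TPM on 20.1 in replicate 2. Lyn-204 runs past the splice donor of the second exon into the intron, for 315 bases outside the coding transcripts. The stretch at that edge, mm10 chr4:3738842-3738921 on the plus strand, has the coding exon in lower case and in capitals the bases past it, which begin with the GT of the donor.

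Lyn-204: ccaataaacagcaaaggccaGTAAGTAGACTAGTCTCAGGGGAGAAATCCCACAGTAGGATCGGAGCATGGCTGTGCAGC

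Whether these reads came from unspliced RNA was not tested. Lyn-201 also shares 26.6% of its 31-base words with other genes, 695 of them with the pseudogene Gm11787, which had no TPM. Of the 10 other SRC and TEC family kinases, 1 was detected: Fyn, at 2.93 and 2.26 TPM. On full-length transcripts Fyn was at 0.588 of Lyn in replicate 1 and 4.61-fold above it in replicate 2. Fgr had no counts, and Btk, the B-cell kinase, was at 3.05 and 0.34 TPM, with 10 expected counts in replicate 2. Full-length Btk was at 0.31 and 0.34 TPM.

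Ptpn6, for the phosphatase SHP-1, was the least certain of the 10 genes. Ptpn6 (chr6:124720707-124738714, minus strand) was at 1.22 TPM in replicate 1, from 166 expected counts, and 5.10 TPM in replicate 2, from 36. The authors' posterior interval, 1.89 to 25.9 TPM and 6.70 to 70.5 TPM, lay above the point estimate in both libraries. The 4.18-fold difference in TPM was absent in CPM, where the ratio of replicate 2 to replicate 1 was 1.10 (exact 95% binomial interval 0.743 to 1.58). The effective length was 1874 bases in replicate 1 and 572 in replicate 2. Ptpn6-202, a full coding transcript, held 89.3% in replicate 1, while Ptpn6-206, a retained-intron model of 371 bases, held 82.1% in replicate 2 on 12.5 expected counts. Full-length transcripts gave 1.09 and 0.91 TPM, alike in both libraries. Ptpn6-202 starts at 124733154, downstream of the starts of Ptpn6-201 and Ptpn6-203.

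Of the 11 other inhibitors and phosphatases, 6 were detected. Inpp5d, for the lipid phosphatase SHIP1, was at 164 and 49.3 TPM in the main table but at 42.3 and 48.0 TPM on full-length transcripts. Sh2b3, for the JAK2 inhibitor LNK, was at 66.6 and 195 TPM, of which 12.3 and 17.6 TPM were on full-length transcripts, and Ptpn11, for SHP-2, was at 51.1 and 20.2 TPM. Each of these had a higher mean than Ptpn6 by either measure. Ptpn2, a phosphatase that acts on JAK kinases, was at 3.85 and 0.45 TPM, and Ptprc, for the leukocyte phosphatase CD45, was the lowest at 0 and 0.05 TPM.

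Full-length transcripts of 8 of the 10 reached 1 TPM in both libraries, which 24.2% of protein-coding genes did, and the exceptions were Lyn and Ptpn6. By full-length mean the order became Pim1 at 1024 TPM, Epor at 79.5, Stat5b at 44.6, Socs1 at 22.7, Socs3 at 7.94, Jak2 at 6.68, Cish at 6.62, Stat5a at 2.25, Lyn at 1.33 and Ptpn6 at 1.00 TPM. Cish moved from the second place to the seventh and Lyn from the fifth to the ninth. The new place of Cish depended on the quantification. In the table made from reads full-length Cish was at 42.6 and 5.34 TPM, and full-length Socs1 at 7.25 and 7.92 TPM. Full-length Jak2, at 8.97 and 4.38 TPM in the main quantification, lay within the range of Cish, 12.0 and 1.27 TPM, so these neighbours could not be ordered. The small full-length shares of Cish and Lyn were not particular to these genes. Over 7297 detected protein-coding genes the median full-length share was 60.8% in replicate 1 and 50% in replicate 2. In these libraries 17.4% and 28.2% of the genes were under 10%.

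**Figure D3:**
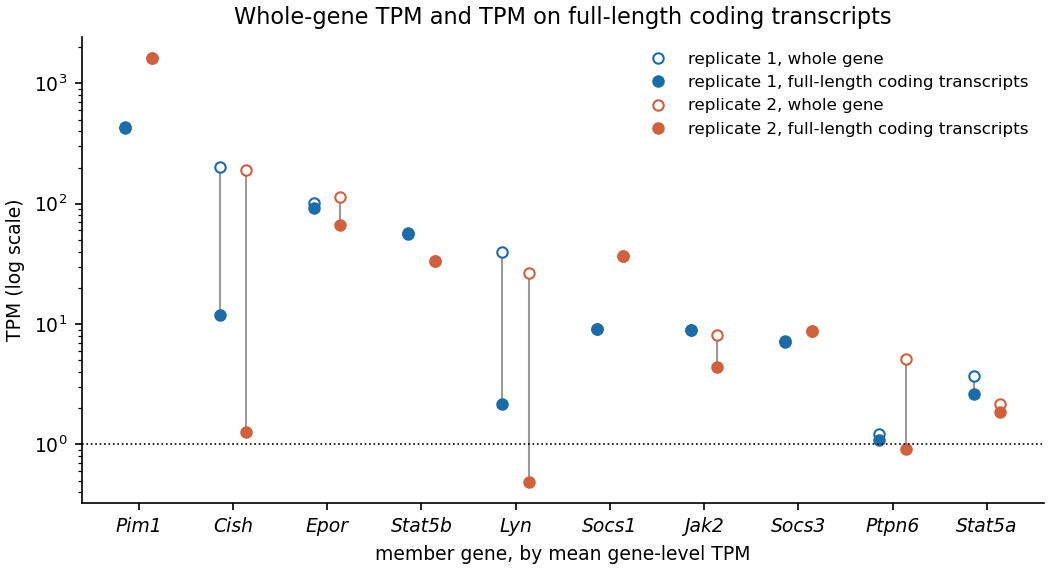
TPM of the whole gene (open points) and of its full-length coding transcripts (filled points) in each library, on a log axis, joined by a grey line; the dotted line marks 1 TPM. Cish falls from 201 and 189 TPM to 12.0 and 1.27 TPM and Lyn from 39.9 and 26.6 TPM to 2.16 and 0.49 TPM, while Pim1, Stat5b, Socs1 and Socs3 hardly move.

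The receptor's neighbours in the pathway were mostly present. The ligand, co-receptor and receptor traffic list had 5 of 8 genes detected. Csf2rb, the common beta chain of the interleukin-3, interleukin-5 and GM-CSF receptors, was at 1761 and 3854 TPM, 17.3-fold and 33.9-fold above Epor, and Csf2rb2, its close copy, was at 587 and 1087 TPM. These paralogs may share reads, and full-length Csf2rb2 was at 77.0 and 14.4 TPM, below full-length Epor. Dnm2, the dynamin that pinches off endocytic vesicles, was at 672 and 1623 TPM, of which 117 and 293 TPM were on full-length transcripts. Epo itself, the hormone gene, had no counts in either library.

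The adaptor, PI3K, RAS and PLC list had 17 of 20 genes detected. Foxo3, the transcription factor that AKT holds out of the nucleus, was at 217 and 167 TPM, Irs2 at 79.3 and 161 TPM and Shc1 at 127 and 71.6 TPM. Full-length Shc1 went the other way, at 20.9 and 70.0 TPM. Plcg2 was the lowest of the list at 0.02 and 0 TPM. Sos1, the RAS exchange factor, was at 2.05 and 8.92 TPM, Vav1 at 5.64 and 1.16 TPM, Pik3ca at 2.22 and 0.15 TPM and Rps6kb1 at 15.3 and 2.32 TPM. At the whole-gene level these 4 were over 4-fold apart, 1 higher and 3 lower in replicate 2. Pik3ca and Rps6kb1 had only 11 and 14 expected counts there. On full-length transcripts Sos1 was at 0.32 and 0.25 TPM and Vav1 at 2.05 and 1.16 TPM. Full-length Pik3ca was at 0.15 and 0 TPM and full-length Rps6kb1 at 0.46 and 0.02 TPM. Of the other cytokine receptors 6 of 21 were detected, a share near the 33.1% of all protein-coding genes, and 6 had no counts. Among the detected were the interferon receptor chain Ifnar2 at 23.5 and 72.3 TPM and the interleukin-3 receptor chain Il3ra at 25.8 and 20.0 TPM. Full-length Ifnar2 was at 10.2 and 34.1 TPM and full-length Il3ra at 3.96 and 5.36 TPM. Ifngr2 was at 4.68 and 36.5 TPM, and Csf1r, the macrophage growth factor receptor, had no counts.

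**Figure D4:**
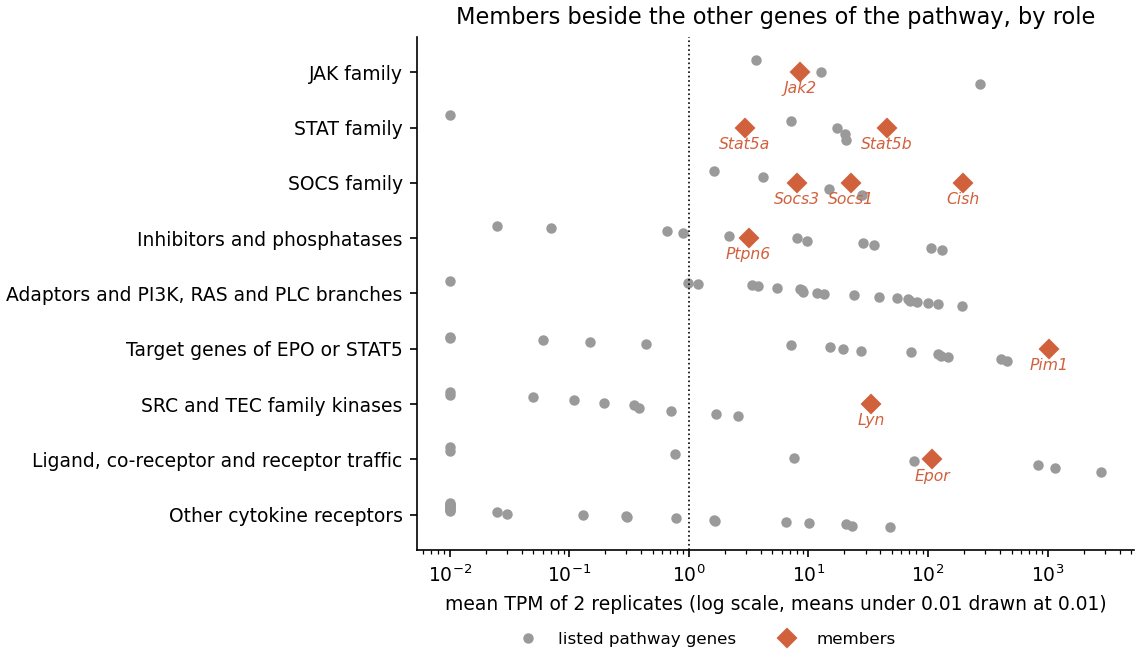
Mean TPM over both libraries of the 10 genes (diamonds) and of 98 other genes of the pathway (dots), by role, on a log axis; the dotted line marks 1 TPM and means under 0.01 are drawn at 0.01. Cish, Pim1 and Lyn have the highest whole-gene mean of their rows, while Jak2 lies below Jak1 and Tyk2 and Stat5a lies below every detected STAT gene.

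In all, 57 of 98 other pathway genes were detected, 58.2%, against 33.1% of protein-coding genes. On full-length transcripts 47 of the 98 reached 1 TPM in both libraries, against 24.2% of protein-coding genes. Of the 98, detected or not, 68 averaged at least 50 expected counts, and 31 of the 68 differed by over 2-fold between the libraries, 14 higher and 17 lower in replicate 2. Of the 10 members of the receptor pathway, 3 were over 2-fold apart in TPM, Socs1, Pim1 and Ptpn6, all higher in replicate 2. Over all 9029 genes with that many counts 50.9% were over 2-fold apart, 15.5% higher and 35.4% lower in replicate 2. The count of 3 in 10 was thus below the share of all genes, and the 3 genes lay on the side that fewer genes took. In CPM, 2 of the 10 were over 2-fold apart, Socs1 and Pim1, against 51% of all genes.

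On full-length transcripts 5 of the 10 were over 2-fold apart, against 56.9% of 7753 genes. Socs1 and Pim1 were higher in replicate 2, against 11.1% of genes. Jak2, Cish and Lyn were lower, by 2.05-fold, 9.43-fold and 4.41-fold, against 45.8% of genes. In replicate 2 the Cish and Lyn values rest on 42.7 and 20.1 expected counts. The median log2 ratio of replicate 2 over replicate 1, with 1 added to each TPM, was 0.03 across the 10 genes, from -0.77 to 1.90, and -0.31 over 8488 protein-coding genes. With no replicate of either library, none of these differences has a test, and depth and maturation markers moved with them.

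**Figure D5:**
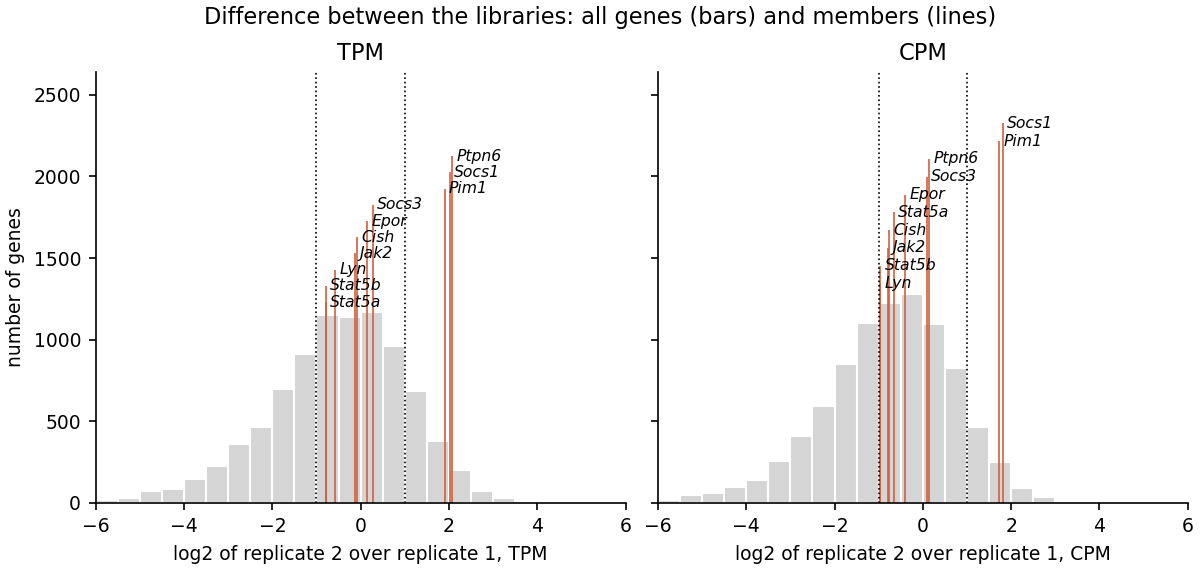
Number of genes by log2 ratio of replicate 2 over replicate 1 in TPM (left) and CPM (right), over 8892 genes that average at least 50 expected counts and lie above 0 TPM in both; coloured lines mark the 10 genes and dotted lines a 2-fold difference. Socs1 and Pim1 lie beyond the right dotted line in both panels, and Ptpn6 does so in TPM alone.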

How the data were processed

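Polyadenylated RNA of 2 libraries, 1 group, was analysed, with none left out. According to the deposited file descriptions, reads were placed on mm10 with GENCODE releases M21 and M4, and another M21 table was made from reads directly. Neither aligner nor quantifiers nor use of strand in counting could be read from the labels or headers: they are not given in the sources used. Antisense and overlapping genes may share reads. The column names are those RSEM writes and, in the table made from reads, those kallisto writes. The authors' expected counts (estimated counts in the table made from reads) are fragments estimated for each gene or transcript, without normalization. The authors' TPM and FPKM values are per length, scaled within a library, and deposited as maximum likelihood and posterior mean estimates with lower and upper bounds of an interval of unstated level. The deposited percent of each isoform was not used, and shares were computed from TPM.

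Main values came from the M21 gene table. Detected means at least 1 TPM in both libraries. Fold differences were counted among genes averaging at least 50 expected counts, and the median log2 ratio used a pseudocount of 1. CPM ratios have exact 95% binomial intervals. The full-length coding measure sums the TPM of protein-coding transcripts with at least 90% of the gene's longest coding sequence, and it was chosen after seeing the data. The 10 genes and all lists were chosen with earlier results of these data known. Named were Gata1, Klf1, Hbb-bs and, from the lists, the 3 detected genes of each with the highest mean, the lowest 1, and genes over 4-fold apart. Marker lists were reported as counts. A gene that this rule names is not reported here. Pim2 and Tfrc were named after their values were seen. Of 100 listed pathway genes 98 were found. Fam132b, the older name of Erfe, and Spi2a were not. Promoter windows are from RefSeq, GRCm38.p6, and transcript sequences and coordinates from GENCODE M21 on mm10.

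Alternatives tried were release M4, the values quantified from reads, posterior means, FPKM, TPM over nuclear protein-coding genes, CPM, edgeR TMM and DESeq2 scaling of rounded expected counts, other thresholds and pseudocounts, and each library alone. The code that counts fold differences was tested on simulated data. Tools were edgeR 4.0.16 and DESeq2 1.42.0 in R 4.3.3, and scipy 1.17.1, pandas 2.3.3, matplotlib 3.10.9 and numpy 2.4.6 in Python 3.11.15.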

Additional observations from a re-analysis of the deposited data

How the results depend on the processing

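No paired analysis was possible because there was 1 group. All 10 genes were detected in each library alone, and 57 to 63 of the other pathway genes. The count over 2-fold apart was 3 in the main table, 7 in the table made from reads, where 76.9% of 10268 genes were, and 5 on full-length coding transcripts, an alternative chosen after seeing the data. The median log2 ratio of replicate 2 over replicate 1 across the 10 genes, 0.03, lay near 0 and moved to -0.12 with M4, -1.29 in the table made from reads, -0.037 with posterior means, -0.49 in CPM, -0.16 with TMM, -0.085 with DESeq2 size factors and -0.40 on full-length transcripts. The cause was not tested. These medians add 1 to each value, as does the -0.31 over all protein-coding genes in TPM. Without it, the median of all genes was -0.39 in TPM, -0.64 in CPM and -1.69 in the table made from reads, where that of the 10 genes was -1.53. The mean of Ptpn6 moved from 3.16 to 21.7 TPM with posterior means. The Stat5a to Stat5b ratio was 0.0651 in TPM, 0.0650 to 0.0651 in either library alone, 0.0646 with M4, 0.0910 in the table made from reads, 0.0782 with posterior means, 0.0415 in expected counts and 0.0514 on full-length transcripts, below 1 throughout. Detection fell to 8 of 10 at 5 TPM and on full-length transcripts. For the other pathway genes, 57 in the main table, it was 44 at 5 TPM and 62 at 0.5 TPM. It was 53 in the table made from reads, 60 with posterior means and 47 on full-length transcripts. Depth limited Ptpn6, with 36 expected counts in replicate 2 and 23.5 on its full-length transcripts. It also limited full-length Lyn, with 20.1, and full-length Cish, with 42.7.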
